A study of Homo sapiens with 2 samples.

Results

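Lysosomal enzymes and membrane proteins were followed in BT549 cells, an established human breast cancer line of mesenchymal character, through 46 genes chosen by name, all of which were among the 19029 genes of the deposited table. Cells made to overexpress SNHG15, a non-coding host gene of a small nucleolar RNA, were set against cells carrying a control vector, pcIP2 in the growth protocol. The labels do not say whether either was a clone or a pool of cells. Both were cultured alike in DMEM with serum, and each group held 1 RNA sequencing library, so there was no replicate check of any difference, no test across cultures, and each 95% interval given below covers counting error only. Of the 46 members, 45 reached a mean of at least 1 CPM (counts scaled to library size by TMM) over the libraries and were compared; CTSS, the cathepsin S gene, had 0 counts with SNHG15, against 4 with the vector.

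The lysosome is an acidic compartment in which hydrolases break down proteins, glycans, sulfated sugars and lipids delivered by endocytosis and autophagy. Most of its soluble enzymes are tagged with mannose 6-phosphate in the Golgi and carried there by receptors, while heavily glycosylated membrane proteins such as LAMP1 and LAMP2 line the limiting membrane. The transcription factors TFEB and TFE3 bind an E-box element in many lysosomal promoters, and secreted cysteine cathepsins are known for degrading matrix around breast cancer cells.

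The libraries held 16570496 counts with SNHG15 and 20799017 with the vector. SNHG15 itself was at 1997 CPM in the SNHG15 library, against 23.3 CPM in the vector library. Of 6 mesenchymal markers, all measured, VIM was at a like level (1998 CPM with SNHG15 and 1993 CPM with the vector), 2 were higher (CDH2 and SPARC) and 2 lower (FN1 and ZEB1). Of 8 luminal or epithelial markers, 3 were measured. KRT18 had 702 CPM with SNHG15 and 1200 CPM with the vector, GATA3 65.2 and 58.6 CPM, and KRT8 26.3 and 36.5 CPM. CD68 and CTSS also mark macrophages, whose own list was near absent: of 12 markers, 7 were in the table, with summed levels of 9.10 CPM in the SNHG15 library, against 18.2 CPM in the vector library. CD14 supplied 7.71 and 17.4 CPM of these sums, whereas CSF1R had 6 and 9 counts and ITGAM 8 and 6, and CD163 had 4 counts and 0. Of the genes set to check the lysosomal label, LAMP1, LAMP2 and CTSD were well expressed. CD68 was low, at 3.94 CPM with SNHG15 and 19.4 CPM with the vector.

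Promoters of the members are shown because several carry the E-box that TFEB and TFE3 recognise. RefSeq sequences (GRCh38.p14, from 250 bases before to 50 after the start) were matched for 34 of the 46 genes, as 49 promoters. The 6-letter core CACGTG was in 11 of the 49 (22.4%), against 9.56% of 13980 promoters of the genes compared. The longer TCACGTGA, which contains the core, was in 6 (12.2%, against 1.80%). These shares count entries and not genes: overlapping entries of CLN3 share their sites, and CD63 has several entries. Both motifs read the same on both strands. Stretches lying before the start are given on the gene's strand, with the core in capitals.
MCOLN1, chr19:7522564-7522623, plus strand: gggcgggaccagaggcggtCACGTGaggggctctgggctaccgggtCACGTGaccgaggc
GAA, chr17:80101496-80101565, plus strand: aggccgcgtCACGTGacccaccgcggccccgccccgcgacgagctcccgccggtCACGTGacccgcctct
CTSA, chr20:45891275-45891324, plus strand: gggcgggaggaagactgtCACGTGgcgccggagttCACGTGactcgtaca
LAMP1, chr13:113297039-113297108, plus strand: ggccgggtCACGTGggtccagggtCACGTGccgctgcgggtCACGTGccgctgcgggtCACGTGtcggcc
CTSF, chr11:66568647-66568741, minus strand: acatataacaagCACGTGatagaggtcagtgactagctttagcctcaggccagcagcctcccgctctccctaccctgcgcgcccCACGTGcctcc

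Among members, levels per length (the authors' FPKM) covered a wide range and kept nearly the same leaders in both libraries. PSAP, the precursor of the saposins that help lipid hydrolases, was highest, at 384 FPKM in the SNHG15 library, against 355 FPKM in the vector library. CTSD, the aspartic protease cathepsin D, had 363 FPKM against 298 FPKM. CTSL, a cysteine cathepsin, had 197 FPKM with SNHG15 and 353 FPKM with the vector, so that it ranked 4 with SNHG15 and 2 with the vector. CD63, a tetraspanin of the lysosomal membrane, had 204 FPKM against 157 FPKM, and CTSB, cathepsin B, 118 FPKM against 169 FPKM. These 5 genes carried 67.5% of the summed member FPKM in the SNHG15 library, against 67.7% in the vector library. At the low end were CTSK, the bone-resorbing cathepsin K, at 0.783 and 0.584 FPKM, and IDUA, the iduronidase of heparan and dermatan sulfate breakdown, at 0.519 and 0.634 FPKM.

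**Figure D1:**
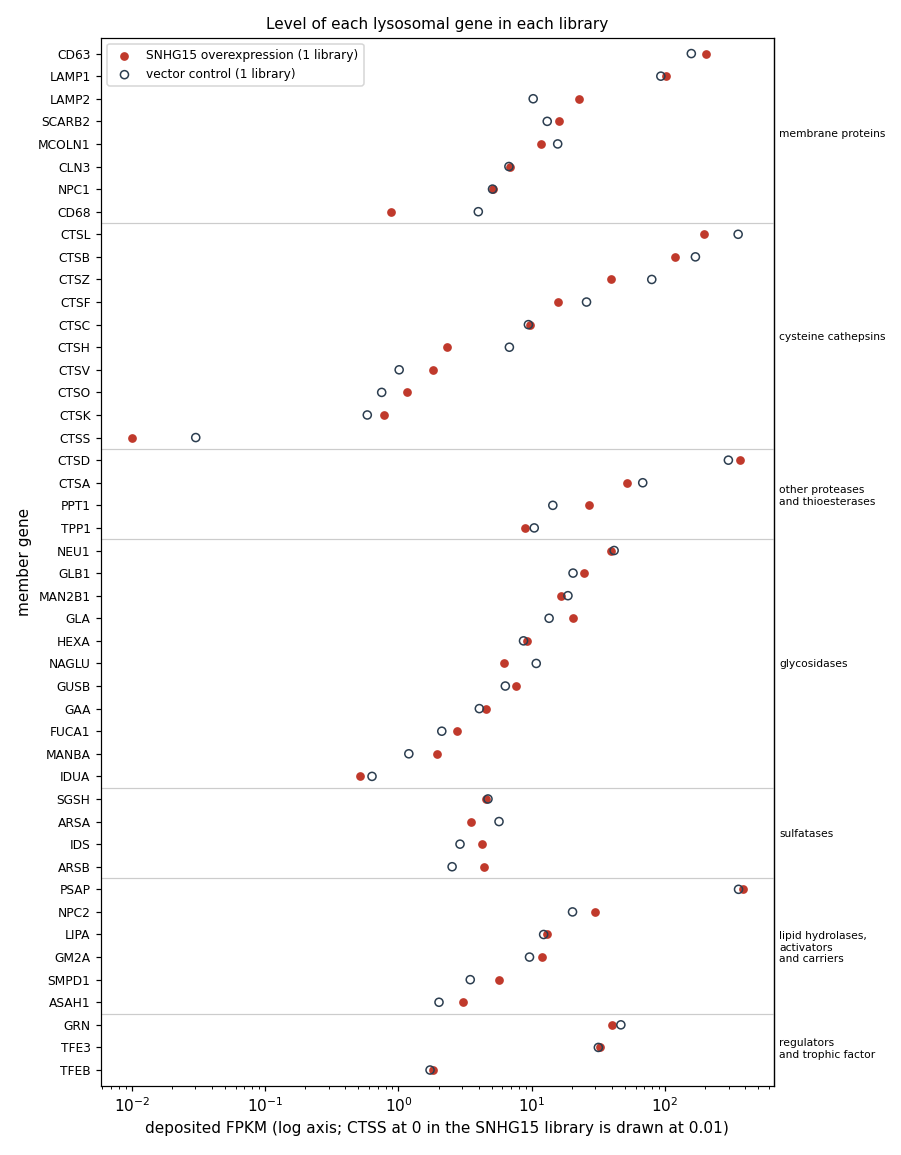
Deposited FPKM of each member (log axis) in the SNHG15 library (filled red) and the vector library (open circles), 1 library each, grouped by role. PSAP, CTSD, CTSL, CD63 and CTSB lead in both libraries, and the cysteine cathepsins CTSL, CTSB, CTSZ, CTSF and CTSH lie to the left with SNHG15.

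The question was which lysosomal genes stand at another level under SNHG15 overexpression. The members did not move as a block. A gene counted as higher or lower where its ratio of scaled counts reached 1.5-fold and its interval excluded 1. By this rule 5 of 45 members were higher, where 13.3% of the 12934 genes compared were, and 8 were lower, where 12.2% of all genes were, CD68 among them with an uncertain value. With the whole interval beyond 2-fold, 0 members were higher (2.20% of all genes) and 3 were lower (2.45% of all genes). The median log2 ratio was −0.02 over the members and 0.02 over all genes compared, and for 13 of the 45 the interval included 1. The lower genes were mostly cysteine cathepsins, and the higher ones came from several roles.

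**Figure D2:**
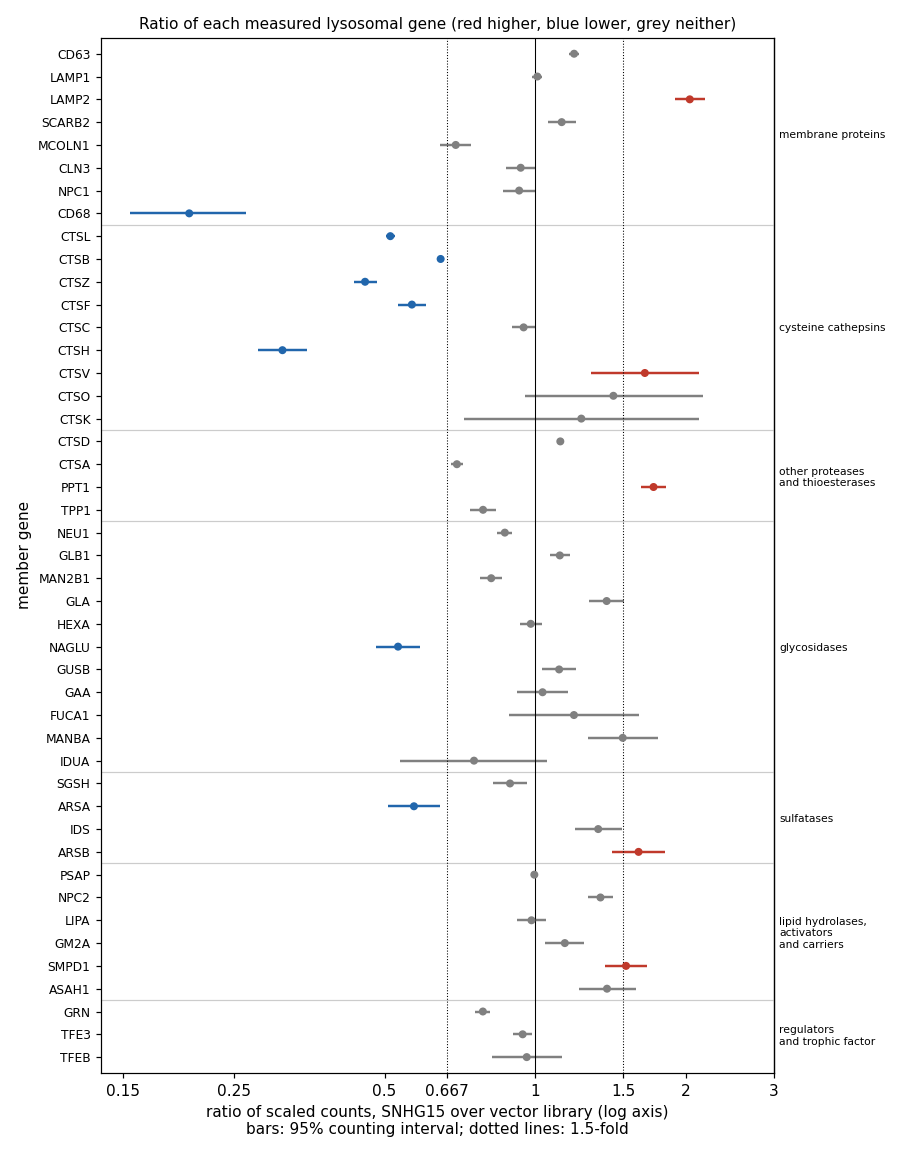
Ratio of scaled counts of each measured member, SNHG15 over vector library (log axis), with 95% counting intervals. Red points are at least 1.5-fold higher, blue ones at least 1.5-fold lower and grey ones neither. Of 9 cysteine cathepsins 5 are blue and CTSV is red, where 12.2% of all genes compared were lower and 13.3% higher.

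Among the cysteine cathepsins, the papain-like proteases of the lysosome, 5 of 9 measured were lower (55.6%), 1 was higher (11.1%) and 3 were neither. Of all genes compared, 12.2% were lower and 13.3% higher. The median log2 ratio of these cathepsins was −0.63. Of the 5 lower ones, CTSF and CTSB fell short of 1.5-fold relative to their neighbouring genes. Their summed level was 386 FPKM in the SNHG15 library, against 646 FPKM in the vector library. CTSH, an aminopeptidase (ENSG00000103811, chr15:78921058-78949574, hg38), had 23.2 CPM with SNHG15 and 74.2 CPM with the vector (400 and 1482 counts), 3.20-fold lower (2.86 to 3.58). CTSZ, a carboxypeptidase, had 112.9 CPM against 247 CPM (1948 and 4933 counts), 2.19-fold lower (2.08 to 2.31). CTSL, an endopeptidase, had 856 CPM against 1667 CPM (14766 and 33289 counts), 1.95-fold lower (1.91 to 1.99). The intervals of CTSH and CTSZ lay wholly past 2-fold, but that of CTSZ did not by library totals (ratio 0.496, 0.470 to 0.522), with the GC trend removed (0.517) or relative to its neighbours (0.522). Fewer transcripts per cell and fewer expressing cells cannot be told apart in such bulk RNA.

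CTSF, whose loss causes a neuronal storage disease, had 82.9 CPM in the SNHG15 library, against 146.2 CPM in the vector library (1431 and 2921 counts), 1.76-fold lower (1.65 to 1.88). The 20 nearest genes on each side of CTSF had a median log2 ratio of −0.48, and relative to them its ratio was 0.792, short of the threshold. CTSB, a protease with both endopeptidase and carboxypeptidase activity, had 2079 CPM against 3210 CPM (35863 and 64125 counts), 1.54-fold lower (1.52 to 1.56). CTSB stood only just past the threshold, and its ratio was 0.702 by library totals and 0.752 relative to its neighbours, short of it in both. CTSV, close in sequence to CTSL, went the other way at 9.22 CPM against 5.56 CPM (159 and 111 counts, ratio 1.66, 1.29 to 2.13), or 1.45 with the GC trend removed. No 50-base word was shared between the annotated transcripts of CTSL and CTSV (0 of 4697 words of CTSV). CTSC, the activator of granule serine proteases, had a ratio of 0.949 (0.898 to 1.003), and for CTSO (1.43, 0.956 to 2.16) and CTSK (1.24, 0.722 to 2.13) the intervals included 1.

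Cystatins, which inhibit cysteine cathepsins, were also lower where measured. CSTB, the cytosolic cystatin B, had 311 CPM in the SNHG15 library, against 787 CPM in the vector library, 2.53-fold lower (2.46 to 2.61). CST3, the secreted cystatin C, had 75.2 CPM against 131.9 CPM, 1.75-fold lower (1.64 to 1.88), and overlaps another gene on its strand. Of 8 cystatins listed, 3 were in the table and 2 were measured.

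Membrane proteins split. LAMP2, the limiting-membrane protein needed for chaperone-mediated autophagy (ENSG00000005893, chrX:120427827-120469365, hg38), had 136.2 CPM in the SNHG15 library, against 66.8 CPM in the vector library (2350 and 1334 counts), a ratio of 2.04 (1.91 to 2.18). LAMP1, its abundant partner, had 762 CPM against 754 CPM, a ratio of 1.01 (0.987 to 1.03), so the intervals of LAMP1 and LAMP2 did not overlap. Beside this, the 20 nearest genes on each side of LAMP2 had a median log2 ratio of 0.64, and relative to them LAMP2 was at a ratio of 1.31; the part of this neighbourhood in the result was not tested. CD63 (1.20, 1.17 to 1.22) and SCARB2 (1.13, 1.06 to 1.21), the receptor that carries glucocerebrosidase, were within 1.5-fold.

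CD68, a macrosialin that is also used as a macrophage marker (chr17:7579467-7582113, hg38), had 3.94 CPM in the SNHG15 library, against 19.4 CPM in the vector library (68 and 387 counts), 4.92-fold lower (3.79 to 6.46). This value is uncertain, because AC016876.3 overlaps it on the same strand and had 884 counts with SNHG15 and 313 with the vector. Pooled, the genes had a ratio of 1.57 (1.43 to 1.74), which is on the other side of 1. The macrophage markers measured alongside were near 0 apart from CD14, 2.25-fold lower (1.84 to 2.77), and their part in the CD68 value was not tested. PTPRC, LYZ, TYROBP, AIF1 and SPI1 were not found by name in the deposited table. MCOLN1, a lysosomal calcium channel, had a ratio of 0.694 (0.647 to 0.745) and overlaps PNPLA6. NPC1, the cholesterol exporter (0.930, 0.861 to 1.004), and CLN3 (0.936, 0.875 to 1.001) had intervals that included 1.

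Of the other proteases and thioesterases, PPT1, which removes palmitate from proteins, was higher at 168 CPM in the SNHG15 library, against 97.3 CPM in the vector library (2898 and 1944 counts, ratio 1.73, 1.63 to 1.83). CTSD was at a ratio of 1.12 (1.11 to 1.14). TPP1, a tripeptidyl peptidase, was at 0.787 (0.741 to 0.836). CTSA, the protective protein of a complex with GLB1 and NEU1, was at 0.698 (0.680 to 0.716), whereas its partners were at 1.12 (GLB1, 1.07 to 1.17) and 0.870 (NEU1, 0.841 to 0.901). The partners of this complex had intervals that did not overlap one another, although none passed 1.5-fold. Relative to their neighbouring genes, GLB1 (1.08, 1.03 to 1.13) and NEU1 (1.05, 1.01 to 1.08) had intervals that overlapped.

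Glycosidases, which trim sugars from glycoproteins, glycolipids and glycosaminoglycans, had 0 of 11 higher and 1 lower (9.09%) and a median log2 ratio of 0.05. Of all genes compared, 13.3% were higher and 12.2% lower. NAGLU, which acts on heparan sulfate, had 31.7 CPM with SNHG15 and 59.6 CPM with the vector (547 and 1190 counts), 1.88-fold lower (1.70 to 2.08). MANBA, the beta-mannosidase, missed the threshold at a ratio of 1.498 (1.27 to 1.76), and GLA, the enzyme lost in Fabry disease, was at 1.39 (1.28 to 1.51). HEXA, a subunit of hexosaminidase, was at 0.981 (0.932 to 1.03). GAA, the acid glucosidase, was at 1.04 (0.920 to 1.16), and GUSB, the beta-glucuronidase, at 1.12 (1.03 to 1.21). MAN2B1, the alpha-mannosidase, was at 0.817 (0.776 to 0.861), or 0.737 pooled with an overlapping gene of its strand. For FUCA1, the fucosidase (1.20, 0.886 to 1.62), and IDUA (0.755, 0.536 to 1.06) the intervals included 1.

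Sulfatases, which remove sulfate from glycans and sulfatides, went both ways. ARSB, which acts on dermatan sulfate, had 37.9 CPM in the SNHG15 library, against 23.5 CPM in the vector library (654 and 470 counts, ratio 1.61, 1.43 to 1.82). ARSA, the enzyme lost in metachromatic leukodystrophy, had 23.9 CPM against 41.7 CPM (412 and 833 counts), 1.75-fold lower (1.55 to 1.97). Their neighbours leaned the same ways, with median log2 ratios of 0.50 around ARSB and −0.46 around ARSA, and relative to these the ratios were 1.14 and 0.790, both short of the threshold, as was ARSA with the GC trend removed (0.725); the part of the neighbourhoods was not tested. IDS was at 1.34 (1.20 to 1.49) and SGSH at 0.891 (0.824 to 0.964).

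Lipid hydrolases, their activators and carriers had the highest median of the role groups, a log2 ratio of 0.32. In this group 1 of 6 was higher (16.7%) and 0 lower, against 13.3% and 12.2% of all genes compared. With the GC trend removed the median of the lipid group was 0.19, near the 0.17 of the glycosidases, and relative to neighbouring genes it was 0.15. SMPD1, the acid sphingomyelinase, had 58.8 CPM in the SNHG15 library, against 38.6 CPM in the vector library (1014 and 772 counts, ratio 1.52, 1.38 to 1.67), and fell short at 1.48 by DESeq2 size factors. ASAH1, the acid ceramidase that follows it in sphingolipid breakdown, was at 1.39 (1.22 to 1.59). NPC2, which hands cholesterol to NPC1, was at 1.35 (1.28 to 1.43), GM2A, the ganglioside activator, at 1.15 (1.05 to 1.254) and LIPA, the acid lipase, at 0.984 (0.919 to 1.05). PSAP was at 0.997 (0.983 to 1.01).

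The regulators were close to 1. TFEB had 16.3 CPM in the SNHG15 library, against 16.9 CPM in the vector library (281 and 338 counts, ratio 0.962, 0.819 to 1.13). TFE3 had 220.4 CPM against 233.3 CPM (3803 and 4661 counts, ratio 0.945, 0.905 to 0.986). GRN, the progranulin that is taken to lysosomes, was at 0.786 (0.760 to 0.814). Of the 5 members whose promoters held TCACGTGA (LAMP1, CLN3, GAA, MCOLN1 and CTSA), 0 passed 1.5-fold, too few genes to read against the shares of all genes given above. Of the members with only the shorter core, CTSF was lower and ARSB, in 1 of its promoters, higher. NEU1, CTSD and CD63, the last in 1 of its promoters, also held it and did not pass 1.5-fold. No promoter was matched for LAMP2, CTSB, NAGLU and ARSA, which did pass, and these genes too are too few to read against all genes. The mRNA levels of TFEB and TFE3 say nothing of their location in the cell.

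Ratios of the members followed transcript GC content, as those of all genes did. The median GC content was 45.7% for the 5 higher members and 56.8% for the 8 lower ones, against 51.4% for the rest. Spearman's rho of log2 ratio with GC was −0.63 over 45 members and −0.32 over the genes compared, whose points share the same pair of libraries. With the trend removed, the median log2 ratio of the members was 0.07 and that of the cysteine cathepsins −0.59. Relative to neighbouring genes the cathepsin median was −0.34. The part of GC content in these ratios was not tested.

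**Figure D3:**
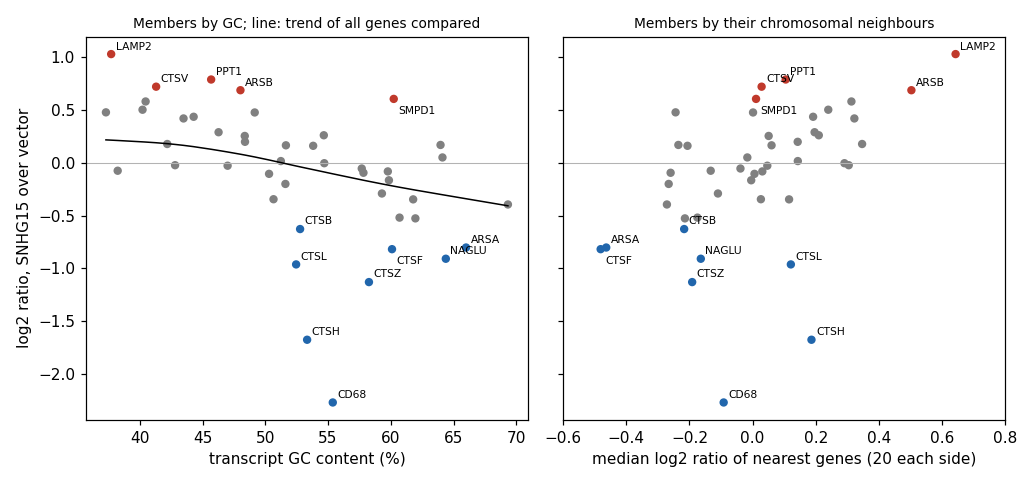
Log2 ratio of each measured member, SNHG15 over vector, against transcript GC content with the trend of all genes compared as a line (left), and against the median log2 ratio of the 20 nearest genes on each side (right). Colours are as in the plot of ratios. LAMP2 and ARSB lie among neighbours that were themselves higher, while CTSL and CTSH lie among neighbours above 0.

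Other lysosomal genes outside the members were mixed too. Of 27 further hydrolases measured, 4 were higher (14.8%) and 5 lower (18.5%), with a median log2 ratio of −0.01. Among all genes compared, 13.3% were higher and 12.2% lower. PLA2G15, a lysosomal phospholipase, had 31.5 CPM in the SNHG15 library, against 97.4 CPM in the vector library, 3.09-fold lower (2.81 to 3.41). NAAA, an amidase of fatty acid ethanolamides that overlaps SDAD1 on its strand, was 4.22-fold lower (2.03 to 9.84). It was poorly expressed, at 0.522 CPM with SNHG15 and 2.20 CPM with the vector (9 and 44 counts). DPP7, a dipeptidyl peptidase, was 1.80-fold lower (1.70 to 1.92). GALC, the galactocerebrosidase, was at a ratio of 2.27 (1.71 to 3.03) and LGMN, the asparaginyl protease legumain, at 1.57 (1.44 to 1.71). Of 24 further membrane proteins, 1 was higher and 1 lower, and of 18 subunits of the V-ATPase, the proton pump that acidifies the lysosome, 1 was higher and 1 lower, with medians of 0.05 and −0.01. The lower membrane protein was ATP13A2 (1.53-fold lower, 1.44 to 1.62), and the subunits were ATP6V1D (1.62, 1.41 to 1.88) and ATP6V1F (1.51-fold lower, 1.45 to 1.56).

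Genes of mannose 6-phosphate tagging and sorting had 3 higher (13.6%) and 4 lower (18.2%) of 22 measured, against 13.3% and 12.2% of all genes compared. IGF2R, the large mannose 6-phosphate receptor, had 1137 CPM in the SNHG15 library, against 735 CPM in the vector library (ratio 1.55, 1.51 to 1.58). It overlaps another gene on its strand. GNPTAB, the transferase that starts the tag, was at 2.002 (1.49 to 2.70) and the sorting receptor SORT1 at 1.90 (1.65 to 2.18). The adaptor subunits AP1S1 and AP1M1 were 1.69-fold (1.62 to 1.76) and 1.67-fold (1.59 to 1.75) lower, and NAGPA, which uncovers the tag, was 1.66-fold lower (1.45 to 1.89). M6PR, the small receptor, was at 1.05 (0.972 to 1.14).

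**Figure D4:**
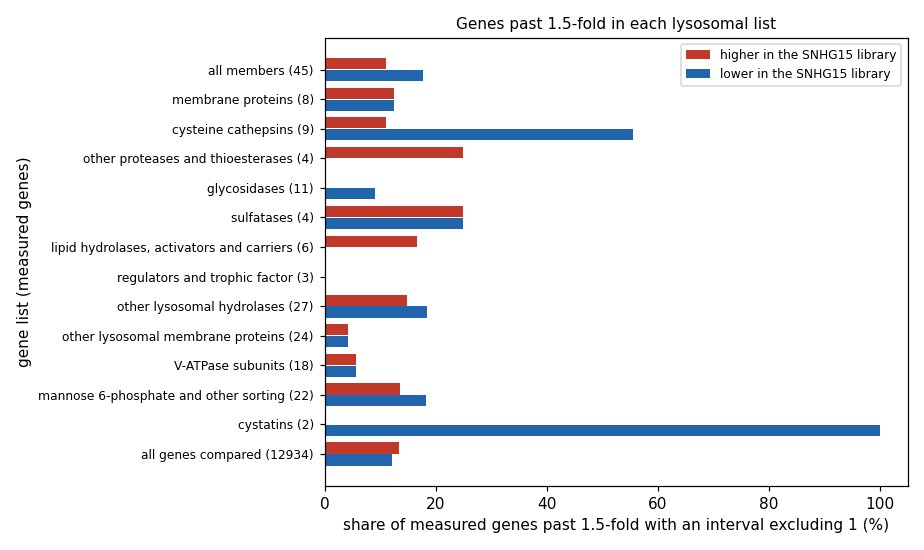
Share of measured genes past 1.5-fold in the SNHG15 library, higher (red) and lower (blue), for the members, their role groups, other lysosomal lists and all genes compared, with the number measured in brackets. All genes compared had 13.3% higher and 12.2% lower.

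In the authors' deposited table, made from the same counts, LAMP2 was called higher and CD68, CTSH and CTSZ lower among the members. Its log2 ratios of FPKM were 1.14, −2.18, −1.56 and −1.01 for these 4 genes.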

How the data were processed

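RNA of 1 SNHG15 library and 1 vector library was used, as the labels group them. The authors deposited 1 table with whole-number counts, not normalized, FPKM values, log2 ratios of FPKM and p-values, per the file headers. Reads were placed on hg38 according to the submitters' processing notes; the aligner, counter and annotation are not given in the sources used here. From the deposited counts, TMM factors (1.04 for SNHG15, 0.960 for the vector) came from edgeR 4.0.16 (R 4.3.3), and the interval of each ratio is the exact Clopper-Pearson 95% interval of its pair of counts. Reads are not independent molecules. Log2 ratios used a prior count of 2. GC content came from GENCODE 29 transcripts, with a value for 99.7% of the genes compared, and its trend was removed by lowess (span 0.5). The functions were tested on simulated data. All members passing 1.5-fold, the 5 highest by FPKM, TFEB and TFE3 were named with full values, and up to 4 genes past 1.5-fold of each other list, of which a result is not reported here. Remaining members were named as partners or examples. LGMN, GNPTAB, NAGPA, M6PR, SQSTM1 and MITF were named in addition after values were seen. Members and lists were chosen with earlier results of these data known. Overlapping genes may share reads. Of the members, 11 overlap a gene on the same strand and 11 on the opposite strand, and whether strand was kept is not known.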

Additional observations from a re-analysis of the deposited data

How the results depend on the processing

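Results were recomputed with library totals, with size factors of DESeq2 1.42.0, without the filter or with a minimum of 5 CPM, with the GC trend removed, centred on neighbours, by FPKM with a pseudocount of 1, with prior counts of 0.5 and 10, and without genes that overlap on the same strand. The median log2 ratio of the members stayed between −0.06 and 0.09 under all of them. Library totals, which raised the median of all genes to 0.13, gave 9 higher members (18.4% of all genes), adding CTSO, GLA, MANBA and ASAH1, and 1 beyond 2-fold higher. Neighbour centring gave 5 lower members (10.6% of all genes), without ARSA, CTSF and CTSB, and 4 higher ones, with ASAH1 and without LAMP2 and ARSB. Leaving out overlapping genes left 34 members, of which 5 were lower (11.7% of all genes left) and 5 higher (13.4%). Of the 11 members left out, 3 had been called. GC removal ended the calls of CTSV (1.45) and ARSA (0.725). Beyond 2-fold lower, 2 members were left by library totals, by GC removal and without overlapping genes. By FPKM with the pseudocount 28 of 45 ratios left their counting interval, with CTSB (0.704), ARSA (0.678) and CTSV (1.40) short of 1.5-fold and CD68 at 0.377. No called ratio changed direction under these settings, although CD68 pooled with its overlapping gene did (1.57). No paired analysis was possible because each group held 1 library, and leaving out a library was likewise not possible. Depth limited CTSK, CTSO, IDUA and FUCA1, whose intervals were wide. Whether other cultures would give these differences was not tested.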

Other observations

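Autophagy delivers cargo to lysosomes, and its core genes had 4 higher and 2 lower of 38 measured, with a median log2 ratio of 0.11. Both shares lay below those of all genes compared, of which 13.3% were higher and 12.2% lower. MAP1LC3B, which coats autophagosomes, had 66.2 CPM in the SNHG15 library, against 33.1 CPM in the vector library (ratio 2.002, 1.82 to 2.21). ATG14, a subunit of the lipid kinase complex that starts autophagosomes, was at 2.02 (1.597 to 2.57), on 199 counts with SNHG15 and 114 with the vector. It overlaps another gene on its strand. UVRAG, which competes with ATG14 for that complex, was 2.04-fold lower (1.58 to 2.66), and SNAP29, a fusion factor, 1.74-fold lower (1.58 to 1.93). The cargo receptor SQSTM1 was at 1.03 (1.02 to 1.05).

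Of 21 measured genes of TFE factors and mTORC1 at the lysosome, RRAGB was higher (2.10, 1.43 to 3.12) and LAMTOR4 1.53-fold lower (1.44 to 1.62). Each was 4.76% of the list, against 13.3% of all genes higher and 12.2% lower. MITF, a relative of TFEB, was at 0.832 (0.465 to 1.47), on 23 and 32 counts.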
